A study of Mus musculus with 6 samples.

Results

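The nuclear-encoded subunits of the mitochondrial respiratory chain were described in two-cell mouse embryos with and without injected PIASy mRNA. They were taken as every protein-coding gene in the table of FPKM values (fragments scaled by gene length and by library size) whose symbol begins as those of the subunits do. These beginnings were Nduf followed by a, b, c, s or v and a digit, the 4 Sdh genes, Uqcr, Cyc1, Cox4 to Cox8, and Atp5. The acyl carrier subunit Ndufab1 and the assembly factors named Ndufaf do not begin in this way and were not members. This rule gave 84 of the 53023 genes, with 37 in complex I, 4 in complex II, 9 in complex III, 18 in complex IV and 16 in complex V. Embryos of the ICR strain were collected at 28 h post insemination (hpi), pooled by 5 and sequenced, with 2 libraries in each of 3 groups. PIASy-WT embryos had received mRNA for wild-type PIASy, an E3 ligase for the small ubiquitin-like modifier SUMO, fused to mCherry and HA tags. PIASy-Mut embryos had received the same mRNA carrying C335F, a RING finger change described as removing ligase activity, and the non-injection embryos had received no mRNA. Injected mRNA was at 100 ng/µl, went into the cytoplasm from 1.5 to 3 hpi, and embryos that fluoresced were kept at 9 hpi. No library came from embryos injected with an unrelated mRNA, so against non-injection the injection and the selection cannot be told apart from PIASy itself, while PIASy-Mut shares both with PIASy-WT. The methods of the study count replicates as biological, and whether the pools of a group came from separate fertilizations is not given in the sources used here, so P-values measure the spread between these pools.

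The respiratory chain moves electrons from NADH and succinate to oxygen and pumps protons across the inner mitochondrial membrane, and ATP synthase uses the resulting gradient to make ATP. Complex I oxidizes NADH, complex II oxidizes succinate and is also an enzyme of the citric acid cycle, complex III passes electrons to cytochrome c, complex IV reduces oxygen, and ATP synthase is called complex V. Complexes I, III, IV and V combine subunits encoded in the nucleus with subunits encoded in mitochondrial DNA, whereas complex II is entirely nuclear. Cleavage-stage mouse embryos rely on mitochondria inherited from the oocyte, use pyruvate rather than glucose as their main fuel, and begin to transcribe their own genome at this time, so their mRNA is a mixture of oocyte transcripts and new ones. Several subunits of complex IV have paralogs that are restricted to muscle or testis in the adult.

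The libraries held from 871663 to 1363928 fragments on genes, and 3 fragments corresponded to between 2.20 and 3.44 CPM, fragments scaled to a common library size. No molecular identifiers are described for the libraries, so limits drawn from fragment numbers cover counting error only. The injected gene, Pias4, had an FPKM of 609.9 and 579 for PIASy-WT, 862 and 611 for PIASy-Mut, and 2.98 and 3.59 for non-injection. Of the libraries, PIASy-Mut 1 stood apart in its mitochondrial transcripts, which took 1.28% of its fragments against 5.82% to 8.14% in the other 5. Each call in PIASy-WT against PIASy-Mut was made with this library included, and these calls depended on other single libraries as well, as described below. Among markers of the cells that a preparation could hold, all 6 oocyte genes and all 6 genes typical of two-cell embryos were detected in every library. Against non-injection, by the test described below, 5 of the 6 oocyte genes were higher in value and 1, Zp3, was called lower, with a median log2 fold change of 0.76. Against PIASy-Mut 3 were higher and 3 lower in value, with a median of 0.17, and in PIASy-Mut against non-injection 5 were higher, with 0.22. Of the two-cell genes 5 were lower in value and 1 higher in each comparison of PIASy-WT, and 2 lower and 4 higher in PIASy-Mut against non-injection. In PIASy-WT against PIASy-Mut, Tcstv3 and Zp3 were called lower. By contrast 7 of 10 cumulus cell genes did not reach an FPKM of 1 in 2 libraries, and of the 3 that did 2 were higher in value and 1, Amhr2, was called lower against non-injection. Foxl2 and Inhba, defining genes of the ovarian somatic cells around the oocyte, had 0 fragments in every library, and the summed FPKM of the cumulus genes was 7.79 and 7.69 for PIASy-WT, 10.1 and 12.0 for PIASy-Mut, and 10.1 and 10.8 for non-injection. The summed FPKM of the oocyte genes was 4899 and 4126 for PIASy-WT, 2996 and 4369 for PIASy-Mut, and 3149.9 and 2684 for non-injection, and that of the two-cell genes was 826 and 593 for PIASy-WT, 1284 and 1318 for PIASy-Mut, and 1163 and 1194 for non-injection. The two-cell sum was lowest in both PIASy-WT libraries, and the oocyte sum was lowest in the non-injection libraries and in PIASy-Mut 1. Values are shares of each library, so fewer embryonic cells with a transcript and less of it per cell cannot be told apart, and the part of these marker levels in the results below was not tested.

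Promoter sequences of the members were examined because respiratory chain genes are known targets of the transcription factors NRF1, GABPA and YY1. Windows from 250 bases before to 50 bases after the transcription start were taken from RefSeq (GRCm38.p6, the same build as mm10) and matched 66 of the 84 members, with 71 windows. The words searched on both strands were GCGCATGC for NRF1, CCGGAAG for the ETS factor GABPA and AAGATGG for YY1. The sequences printed below were chosen to show a gene lower in PIASy-WT with each of the 3 words, and 2 members that were not called, the paralog Cox6b2 and the most abundant member Cox8a. Capitals mark a match on either strand, and overlapping matches of the NRF1 word on both strands are merged into 1 stretch. Ndufa11 (chr17:56717512-56717811, plus strand) holds the NRF1 word. Cox6b1 (chr7:30626065-30626364, minus strand) holds the GABPA word, and its testis-type paralog Cox6b2 (chr7:4753045-4753344, minus strand) holds none of the 3. Cox8a (chr19:7217567-7217866, minus strand), the member with the highest level, holds the GABPA word 2 times. Atp5j (chr16:84834927-84835226, minus strand) has 2 windows for its 2 starts, and the one shown holds both the YY1 and the GABPA word. It lies inside the 5′ end of Gabpa, which is annotated from position 84834925 on the opposite strand, so that the 5′ ends of both genes share this stretch.
Ndufa11: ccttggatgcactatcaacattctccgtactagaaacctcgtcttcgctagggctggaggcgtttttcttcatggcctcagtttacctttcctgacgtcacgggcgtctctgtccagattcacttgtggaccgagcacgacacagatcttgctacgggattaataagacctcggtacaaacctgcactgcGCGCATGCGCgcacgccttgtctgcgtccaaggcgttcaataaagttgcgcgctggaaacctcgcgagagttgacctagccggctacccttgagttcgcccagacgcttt
Cox6b1: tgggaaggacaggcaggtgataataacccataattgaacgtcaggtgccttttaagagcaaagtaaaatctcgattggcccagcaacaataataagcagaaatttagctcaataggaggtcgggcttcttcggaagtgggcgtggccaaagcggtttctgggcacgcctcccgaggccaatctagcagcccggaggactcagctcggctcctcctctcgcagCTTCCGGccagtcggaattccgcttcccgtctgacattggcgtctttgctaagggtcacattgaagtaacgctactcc
Cox6b2: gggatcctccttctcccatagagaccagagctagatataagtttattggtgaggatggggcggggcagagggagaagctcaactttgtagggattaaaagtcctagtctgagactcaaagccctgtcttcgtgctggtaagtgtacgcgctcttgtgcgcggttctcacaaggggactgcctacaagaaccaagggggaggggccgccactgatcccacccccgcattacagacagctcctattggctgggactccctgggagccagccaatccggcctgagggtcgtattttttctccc
Cox8a: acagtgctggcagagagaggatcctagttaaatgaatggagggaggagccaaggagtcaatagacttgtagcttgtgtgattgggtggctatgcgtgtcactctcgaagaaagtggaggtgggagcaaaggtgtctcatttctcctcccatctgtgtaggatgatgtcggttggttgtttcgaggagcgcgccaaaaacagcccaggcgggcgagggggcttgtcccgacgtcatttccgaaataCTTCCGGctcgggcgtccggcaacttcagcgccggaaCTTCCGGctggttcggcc
Atp5j: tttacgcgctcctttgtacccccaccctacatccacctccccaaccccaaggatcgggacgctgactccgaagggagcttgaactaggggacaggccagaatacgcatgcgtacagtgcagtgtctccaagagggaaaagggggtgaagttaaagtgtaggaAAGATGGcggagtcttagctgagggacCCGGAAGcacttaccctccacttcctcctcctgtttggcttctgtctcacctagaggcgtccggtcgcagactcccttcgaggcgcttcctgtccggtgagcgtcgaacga

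At least 1 of the words was present in 42.3% of the members' windows, against 16.6% of all 32851 windows of the same length. The NRF1 word was in 14.1% against 2.71%, the GABPA word in 22.5% against 8.86%, and the YY1 word in 14.1% against 6.34%. They were present in 41.7% of the 36 windows of members whose PIASy-WT libraries both lay below the other 4, and in 44.1% of the 34 windows of the other members tested. Of the 10 windows of the members that passed the test below, 40.0% held a word. A word is a description of the sequence, and binding was not measured.

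The summed level of the members was lower in both PIASy-WT libraries than in the other 4, and the complexes did not contribute alike. Of all fragments on genes, the 84 members took 0.518% and 0.492% for PIASy-WT, 0.783% and 0.650% for PIASy-Mut, and 0.704% and 0.763% for non-injection. The median FPKM over the 82 members tested was 14.1 and 13.4 for PIASy-WT, 26.1 and 22.6 for PIASy-Mut, and 21.1 and 28.8 for non-injection. The untested members were Cox8b, a muscle-type complex IV subunit with 0 fragments in every library, and Ndufa4l2, a hypoxia-induced relative of Ndufa4 with 1 fragment in PIASy-WT 1 and 0 elsewhere. The test was limma on log2(FPKM + 1) over 16100 genes and all 6 libraries, and a gene was called where its adjusted P did not exceed 0.05. On this scale the fold change of genes with a low FPKM is understated. The median log2 fold change of the members was -0.73 relative to non-injection and -0.64 relative to PIASy-Mut, beside 0.0087 and -0.035 for all genes tested. Between PIASy-Mut and non-injection it was -0.044, beside 0.041 for all genes.

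Of the 82 members, 10 were called lower in PIASy-WT relative to non-injection, which was 12.2% against 5.76% of all genes tested. None was called higher, against 1.03% of all genes, and at an unadjusted P under 0.05 32 members (39.0%) were lower and 5 (6.10%) higher, against 17.6% and 10.6% of all genes. Against PIASy-Mut, 8 members were called lower, which was 9.76% against 6.01% of all genes. None was called higher, against 0.82% of all genes, with 33 (40.2%) lower and 3 (3.66%) higher at an unadjusted P under 0.05, against 18.2% and 9.46% of all genes. The PIASy-WT libraries are shared by these comparisons. In PIASy-Mut against non-injection, 0 members were called in either direction by limma, against 0% of all genes lower and 0.00621% higher. At an unadjusted P under 0.05 this comparison had 0 members lower and 1 higher, against 2.09% and 2.37% of all genes, and voom on recovered fragments called 0 members as well.

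A stricter filter changed the share of genes called. Among the 8282 genes that reached an FPKM of 5 in 2 or more libraries, 17.4% were lower relative to non-injection and 17.9% relative to PIASy-Mut. Of the 73 members at this level, 15 (20.5%) and 17 (23.3%) were called lower, which is close to the share of all such genes and is therefore no result about the members. A single member, Ndufa10, was called higher against non-injection at this level, where 4.01% of genes were, and 0 against PIASy-Mut, where 2.5% were. The medians at this level were -0.81 for the members and -0.11 for all such genes against non-injection, and -0.64 and -0.14 against PIASy-Mut.

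**Figure D1:**
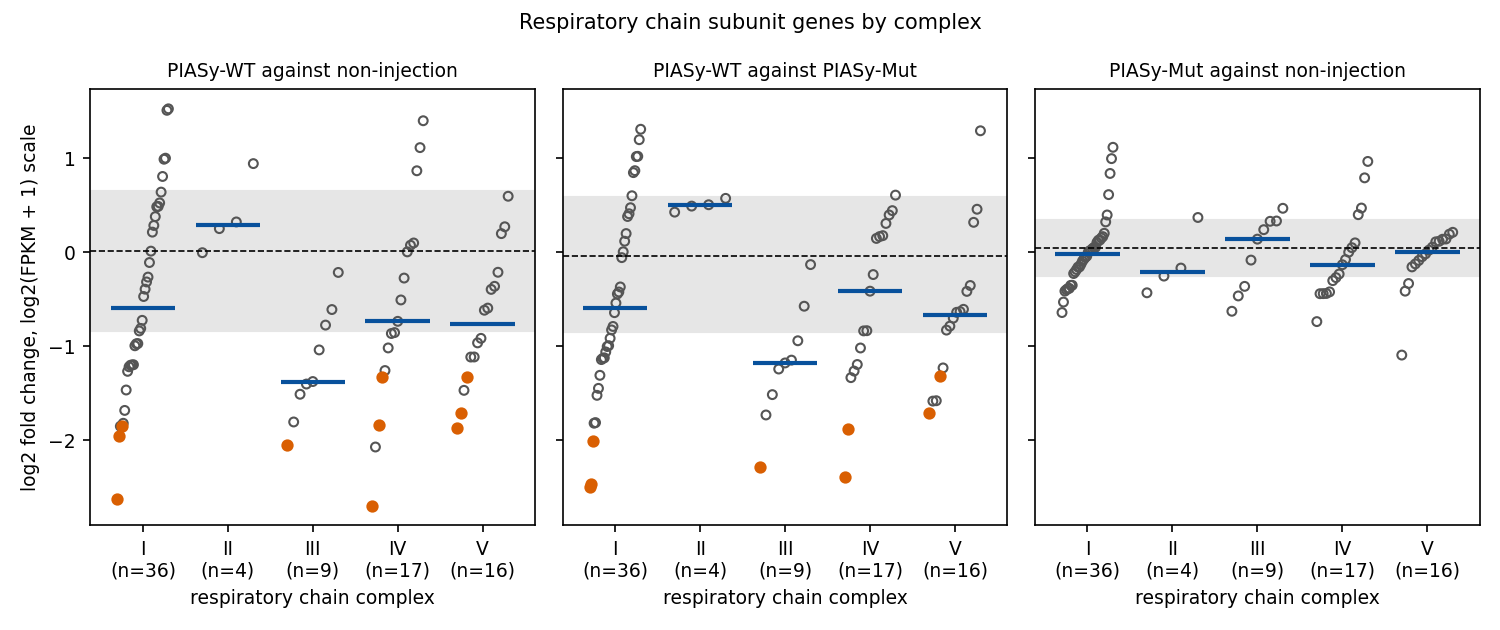
Log2 fold change on the log2(FPKM + 1) scale of each tested member, by complex, in the 3 comparisons. Each circle is 1 gene, filled orange where its adjusted P was at most 0.05, the blue bar is the median of the complex, the dashed line is the median of all 16100 genes and the grey band is their middle range from the lower to the upper quartile; complex III lies lowest in both comparisons of PIASy-WT and complex II lies above the dashed line.

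A count without a threshold showed where the groups separated. In 41 of the 82 members (50%) both PIASy-WT libraries were below all 4 others, against 24.4% of all genes tested. In 8 members (9.76%) both were above, against 19.9% of all genes, and in 33 members they overlapped the other libraries. At an FPKM of at least 5 these shares were 53.4% below and 11.0% above for the members, against 35.7% and 23.8% of all such genes. The members with both PIASy-WT libraries below were 15 of 36 in complex I, 0 of 4 in complex II, 8 of 9 in complex III, 7 of 17 in complex IV and 11 of 16 in complex V. Those with both above were 6 in complex I and 2 in complex II.

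The members called in either comparison belonged to 4 complexes, and those described are Ndufa7, Ndufa11 and Ndufb10 in complex I, Uqcrq in complex III, Cox4i1, Cox6b1 and Cox7a1 in complex IV, and Atp5j, Atp5j2 and Atp5o in complex V. In each of them both PIASy-WT libraries were below the lowest of the other 4 libraries, as the plot of their levels shows. Without any 1 of the non-injection and PIASy-WT libraries, 0 members and 0 of all genes were called lower in either comparison. Leaving out either PIASy-Mut library raised the members lower against non-injection to 16 of 82, while the share of all genes rose to 12.2% and 12.3%. Against PIASy-Mut, 0 members and 0 of all genes were called without PIASy-Mut 1, and 19 members and 13.2% of all genes were lower without PIASy-Mut 2, and the median over the members was -0.47 and -0.78.

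**Figure D2:**
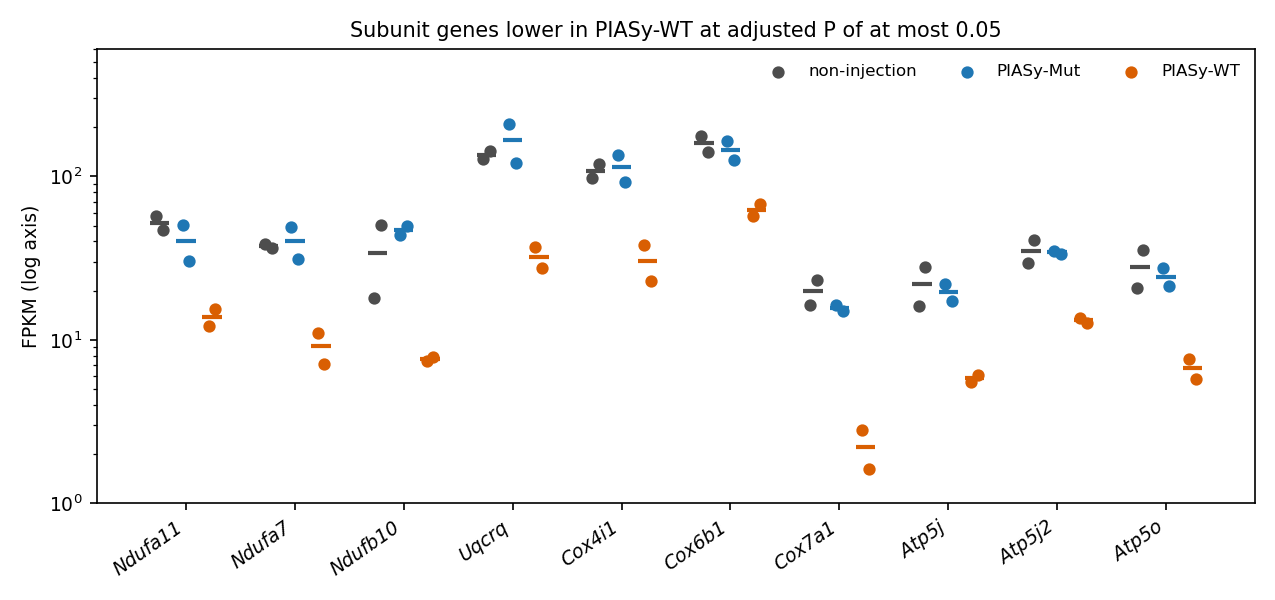
FPKM on a log axis of the 10 described members called lower in PIASy-WT in at least 1 comparison. Points are the 2 libraries of each group and bars are their means; in every gene both orange points lie below all 4 others, with Cox7a1 the farthest apart.

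In complex I the core subunits, which carry the flavin and the iron-sulfur clusters and bind ubiquinone, had a median log2 fold change of -1.20 relative to non-injection and -1.14 relative to PIASy-Mut. Ndufs7 and Ndufs8, which hold the iron-sulfur clusters closest to ubiquinone, had log2 fold changes of -1.68 and -1.20 against non-injection, and Ndufs3 had -0.97, none of them called. Ndufv2, an iron-sulfur subunit of the NADH-oxidizing module, had an FPKM of 24.6 and 29.3 for PIASy-WT, 70.6 and 51.9 for PIASy-Mut, and 58.2 and 68.0 for non-injection. In these 4 genes both PIASy-WT libraries were below the others. Ndufs1, the largest iron-sulfur subunit, overlapped between groups with -0.39, and Ndufv1, which binds the flavin, had 0.21 and at most 9 fragments in a library. The summed FPKM of the core subunits was 60.4 and 58.7 for PIASy-WT, 239 and 121 for PIASy-Mut, and 139 and 178 for non-injection. The sum in the PIASy-WT libraries was the lowest, and the highest was in PIASy-Mut 1.

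The 29 supernumerary members tested bear the symbols of subunits that surround the core, Ndufa4 among them. They had a median of -0.32 relative to non-injection and -0.42 relative to PIASy-Mut, with values in both directions. Of these, 10 (34.5%) had both PIASy-WT libraries below the others and 6 (20.7%) had both above, against 24.4% and 19.9% of all genes, so the share above was near that of all genes. Ndufa11 (ENSMUSG00000002379.6, chromosome 17 from 56717762 to 56724248, plus strand of mm10), a membrane-arm subunit whose promoter holds the NRF1 word, had an FPKM of 12.2 and 15.4 for PIASy-WT, 50.6 and 30.2 for PIASy-Mut, and 57.0 and 47.2 for non-injection. Both PIASy-WT values were well under the lowest of the others, that of PIASy-Mut 2. On the log2 scale it differed by -1.85 relative to non-injection (limma, SE 0.33, adjusted P=0.0358) and -1.45 relative to PIASy-Mut (limma, adjusted P=0.0560). Ndufa7 (ENSMUSG00000041881.12, chromosome 17 from 33824591 to 33838316, plus strand), a subunit of the matrix arm, had an FPKM of 11.1 and 7.16 for PIASy-WT, 49.0 and 31.0 for PIASy-Mut, and 38.8 and 36.4 for non-injection. PIASy-WT did not overlap the other groups, and its log2 fold change was -1.96 relative to non-injection (limma, SE 0.34, adjusted P=0.0340) and -2.01 relative to PIASy-Mut (limma, adjusted P=0.0321).

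Ndufb10 (ENSMUSG00000040048.14, chromosome 17 from 24722060 to 24724478, minus strand), a membrane-arm subunit on the intermembrane space side, had an FPKM of 7.44 and 7.86 for PIASy-WT, 43.8 and 50 for PIASy-Mut, and 18.1 and 50.1 for non-injection. The PIASy-WT libraries were close to each other and the non-injection libraries were far apart. The log2 fold change of this gene was -1.85 relative to non-injection (limma, SE 0.48, adjusted P=0.0698) and -2.47 relative to PIASy-Mut (limma, adjusted P=0.0396), so the call was made against PIASy-Mut and not against non-injection. Ndufa2, the complex I member with the highest level in non-injection embryos and a subunit of the matrix arm, had an FPKM of 128 and 103 for PIASy-WT, 594 and 281 for PIASy-Mut, and 487 and 343 for non-injection. PIASy-WT did not overlap the other groups, but its log2 fold changes of -1.82 relative to non-injection and -1.82 relative to PIASy-Mut (limma, adjusted P=0.0544 and 0.0543) missed the threshold. Its exons overlap Tmco6 on the opposite strand over 10.5% of their length, and the strand setting of the counting is not given in the sources used here.

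The supernumerary subunits with higher values included Ndufa10, a membrane-arm subunit related to nucleoside kinases, with an FPKM of 25.6 and 28.5 for PIASy-WT, 16.0 and 25.1 for PIASy-Mut, and 10.6 and 7.17 for non-injection. Both PIASy-WT libraries were above the others, and both PIASy-Mut libraries were above non-injection too. The fitted log2 fold change was 1.53 relative to non-injection (limma, SE 0.34, adjusted P=0.0530) and 0.41 relative to PIASy-Mut (limma, adjusted P=0.478), and 1.12 for PIASy-Mut relative to non-injection (limma, adjusted P=0.893), the single member with an unadjusted P under 0.05 there. Ndufa3, a small membrane-arm subunit, rested on few fragments, 12 and 22 for PIASy-WT, 4 and 5 for PIASy-Mut, and 4 and 6 for non-injection. Its PIASy-WT libraries were the highest, and the log2 fold changes were 1.51 relative to non-injection and 1.31 relative to PIASy-Mut (limma, adjusted P=0.106 and 0.141). The other members with both PIASy-WT libraries above were Ndufa1, Ndufb5, Ndufb8 and Ndufs6, with log2 fold changes from 0.49 to 0.99 against non-injection and none called. Ndufa1, an X-linked subunit at the junction of the arms, had an FPKM of 194 and 174 for PIASy-WT, 53.2 and 153 for PIASy-Mut, and 108 and 158 for non-injection. Ndufb5 had 9.36 and 11.1 for PIASy-WT, 3.88 and 3.90 for PIASy-Mut, and 4.70 and 4.60 for non-injection, and Ndufb8 had 25.9 and 24.3 for PIASy-WT, 9.55 and 19.0 for PIASy-Mut, and 14.7 and 13.2 for non-injection. In these 3 genes the PIASy-WT libraries were the highest, while the lowest value was that of a PIASy-Mut library.

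Ndufa4, which bears a complex I symbol but is now described as a subunit of complex IV, had an FPKM of 190.1 and 254 for PIASy-WT, 130.5 and 218 for PIASy-Mut, and 164 and 199 for non-injection. Its PIASy-WT libraries overlapped those of the other groups, with log2 fold changes of 0.28 relative to non-injection and 0.38 relative to PIASy-Mut. The remaining supernumerary subunits with both PIASy-WT libraries below were Ndufa9, Ndufa12, Ndufb2, Ndufb7, Ndufb11 and Ndufv3, with log2 fold changes from -1.27 to -0.81 against non-injection. Of these, Ndufb11, an X-linked membrane-arm subunit, had the highest levels outside PIASy-WT, with an FPKM of 27.4 and 46.0 for PIASy-WT, 89.6 and 63.2 for PIASy-Mut, and 71.9 and 98.4 for non-injection. Ndufa12 had at most 6 fragments in any library, so its size of change is uncertain. Another 13 supernumerary members, Ndufa4 among them, did not separate PIASy-WT from the other libraries. Ndufb6, the complex I member with the highest mean level in PIASy-WT, was 1 of these, with an FPKM of 208 and 242 for PIASy-WT, 234 and 233 for PIASy-Mut, and 356 and 272 for non-injection and log2 fold changes of -0.47 relative to non-injection and -0.057 relative to PIASy-Mut.

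In complex II no member had both PIASy-WT libraries below the others. Its 4 subunits are the flavoprotein Sdha, the iron-sulfur protein Sdhb and the membrane anchors Sdhc and Sdhd, and the median log2 fold change was 0.29 relative to non-injection and 0.50 relative to PIASy-Mut. The FPKM of Sdha (ENSMUSG00000021577.14, chromosome 13 from 74322254 to 74350280, minus strand) was 11.7 and 12.9 for PIASy-WT, 7.51 and 8.34 for PIASy-Mut, and 6.75 and 5.14 for non-injection. Both PIASy-WT libraries were above the other 4, and both PIASy-Mut libraries were above non-injection. The log2 fold change of Sdha was 0.94 relative to non-injection (limma, SE 0.30, adjusted P=0.109) and 0.57 relative to PIASy-Mut (limma, adjusted P=0.279), so the difference was not called. The FPKM of Sdhb (ENSMUSG00000009863.14, chromosome 4 from 140961203 to 140979193, plus strand) was 14.5 and 10.9 for PIASy-WT, 6.92 and 10.8 for PIASy-Mut, and 9.82 and 9.87 for non-injection, with PIASy-WT 2 only just above PIASy-Mut 2. Its log2 fold change was 0.32 relative to non-injection and 0.49 relative to PIASy-Mut (limma, adjusted P=0.557 and 0.395).

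Sdhc had an FPKM of 3.48 and 4.82 for PIASy-WT, 2.38 and 2.82 for PIASy-Mut, and 3.61 and 2.99 for non-injection, with log2 fold changes of 0.25 relative to non-injection and 0.51 relative to PIASy-Mut. Sdhd had an FPKM of 15.9 and 13.4 for PIASy-WT, 11.0 and 10.3 for PIASy-Mut, and 14.3 and 15.1 for non-injection, with -0.0049 relative to non-injection and 0.43 relative to PIASy-Mut. Neither anchor separated PIASy-WT from both other groups, and each rested on at most 26 fragments a library. The median FPKM of the 4 subunits was 13.1 and 11.9 for PIASy-WT, 7.22 and 9.30 for PIASy-Mut, and 8.29 and 7.51 for non-injection, so complex II had the lowest median of the 5 complexes in non-injection embryos. In PIASy-WT its median came close to that of complexes I and V, as the plot of median levels shows. Without PIASy-Mut 1 the median log2 fold change against PIASy-Mut was 0.45. The difference between complex II and the others was not tested, since members are not replicates of a condition.

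**Figure D3:**
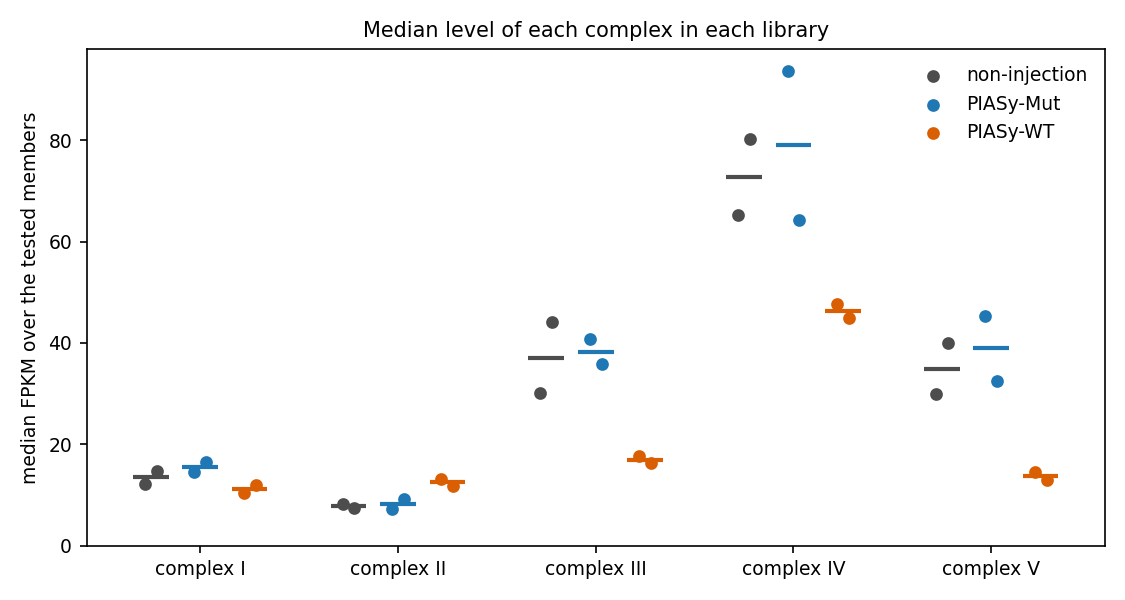
Median FPKM over the tested members of each complex in each library, on a linear axis from 0. Points are the 2 libraries of a group and bars are their means; the PIASy-WT points are below the other groups in complexes I, III, IV and V and above them in complex II, with complex I showing the smallest gap.

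In complex III all 9 members had a negative log2 fold change in both comparisons of PIASy-WT, beside 49.1% and 51.3% of all genes, and the median was -1.38 relative to non-injection and -1.18 relative to PIASy-Mut. The median FPKM was 17.7 and 16.3 for PIASy-WT, 40.8 and 35.8 for PIASy-Mut, and 30.1 and 44.1 for non-injection, so that both PIASy-WT libraries were below the other 4. Uqcrq (ENSMUSG00000044894.14, chromosome 11 from 53427922 to 53430831, minus strand), a small subunit also known as the ubiquinone-binding protein QP-C, was the member called. Its FPKM was 37.1 and 27.6 for PIASy-WT, 211 and 122 for PIASy-Mut, and 128 and 143 for non-injection. The PIASy-WT libraries were the lowest by far and PIASy-Mut 1 was the highest. The log2 fold change was -2.05 relative to non-injection (limma, SE 0.33, adjusted P=0.0325) and -2.29 relative to PIASy-Mut (limma, adjusted P=0.0269).

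Uqcrc1, a core protein related to mitochondrial processing peptidases, had an FPKM of 1.82 and 0.421 for PIASy-WT, 3.75 and 3.33 for PIASy-Mut, and 6.03 and 5.99 for non-injection. Its PIASy-WT libraries were the lowest, PIASy-WT 2 with 2 fragments, and its log2 fold changes were -1.81 relative to non-injection and -1.18 relative to PIASy-Mut (limma, adjusted P=0.0657 and 0.154). Uqcrc2, the other core protein, had an FPKM of 8.87 and 7.5 for PIASy-WT, 19.7 and 13.9 for PIASy-Mut, and 13.5 and 12.5 for non-injection. The log2 fold changes were -0.61 relative to non-injection and -0.94 relative to PIASy-Mut. Pdzd9 lies opposite to 19.7% of the exonic length of Uqcrc2. Uqcrfs1, the Rieske iron-sulfur protein, had an FPKM of 21.0 and 29.4 for PIASy-WT, 71.1 and 44.6 for PIASy-Mut, and 47.9 and 110.3 for non-injection, with log2 fold changes of -1.51 relative to non-injection and -1.15 relative to PIASy-Mut (limma, adjusted P=0.101 and 0.177). Cyc1, cytochrome c1, had an FPKM of 17.7 and 6.56 for PIASy-WT, 36.5 and 29.8 for PIASy-Mut, and 30.1 and 29.6 for non-injection, with log2 fold changes of -1.38 relative to non-injection and -1.52 relative to PIASy-Mut (limma, adjusted P=0.114 and 0.0954). These 4 genes had both PIASy-WT libraries below the others without passing the test.

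The small subunits Uqcr10, Uqcr11 and Uqcrb had log2 fold changes from -1.40 to -0.78 relative to non-injection and from -1.73 to -0.57 relative to PIASy-Mut. Uqcrb shares 25.4% of its sequence, counted in stretches of 50 bases, with other genes, which makes its level uncertain. Uqcrh, the hinge protein that joins cytochrome c1 to cytochrome c, was the exception. Its FPKM was 105 and 91.4 for PIASy-WT, 90.1 and 128 for PIASy-Mut, and 107 and 121 for non-injection. The groups overlapped, and the log2 fold changes were -0.22 relative to non-injection and -0.13 relative to PIASy-Mut. Uqcrh was the complex III member with the highest level in PIASy-WT. Without PIASy-Mut 1 the median of complex III against PIASy-Mut was -1.00.

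Complex IV is the complex in which several subunits have paralogs, and these are set side by side here. The median log2 fold change of the 17 members tested was -0.74 relative to non-injection and -0.41 relative to PIASy-Mut, with 7 members (41.2%) below in both PIASy-WT libraries and 0 above, against 24.4% and 19.9% of all genes. Cox4i1 (ENSMUSG00000031818.12, chromosome 8 from 120668222 to 120674207, plus strand), the general form of the regulatory subunit 4, had an FPKM of 38 and 23.0 for PIASy-WT, 135 and 92.5 for PIASy-Mut, and 98.4 and 119 for non-injection. Both PIASy-WT libraries were far below the others, and the log2 fold change was -1.83 relative to non-injection (limma, SE 0.34, adjusted P=0.0380) and -1.88 relative to PIASy-Mut (limma, adjusted P=0.0353). Its exons overlap Emc8 on the opposite strand over 9.94% of their length. Cox4i2, the form known from hypoxic cells and lung, had at most 1 fragment in any library, so no comparison was possible at this depth. Cox5a, Cox5b, Cox6a1 and Cox7c also had both PIASy-WT libraries below the others, with log2 fold changes from -1.26 to -0.74 against non-injection and none called.

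Subunit 6b had both paralogs at high levels. Cox6b1 (ENSMUSG00000036751.7, chromosome 7 from 30616861 to 30626151, minus strand), the general form, had an FPKM of 57.5 and 67.6 for PIASy-WT, 164 and 126 for PIASy-Mut, and 177 and 141 for non-injection. Both PIASy-WT libraries were below the lowest of the others, and the log2 fold change was -1.33 relative to non-injection (limma, SE 0.26, adjusted P=0.0427) and -1.19 relative to PIASy-Mut (limma, adjusted P=0.0518). Cox6b2 (ENSMUSG00000051811.14, chromosome 7 from 4751792 to 4753094, minus strand), the form restricted to testis in the adult, had an FPKM of 340.5 and 429 for PIASy-WT, 282 and 339 for PIASy-Mut, and 341 and 385 for non-injection. Its groups overlapped, with log2 fold changes of 0.074 relative to non-injection and 0.31 relative to PIASy-Mut. Cox6b2 therefore made up 85.5% and 86.4% for PIASy-WT, 63.2% and 72.8% for PIASy-Mut, and 65.8% and 73.2% for non-injection of the FPKM of both genes together. The share in both PIASy-WT libraries was above that in the other 4, and Cox6b2 was the main form in every library.

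In subunit 7a the tissue-restricted paralog was the gene called. Cox7a1 (ENSMUSG00000074218.3, chromosome 7 from 30184144 to 30186078, plus strand), the form of heart and skeletal muscle, had an FPKM of 2.82 and 1.63 for PIASy-WT, 16.3 and 15.0 for PIASy-Mut, and 16.4 and 23.1 for non-injection. These levels rested on few fragments, 2 and 1 for PIASy-WT, 9 and 7 for PIASy-Mut, and 12 and 14 for non-injection. On the log2 scale it differed by -2.70 relative to non-injection (limma, SE 0.35, adjusted P=0.0251) and -2.39 relative to PIASy-Mut (limma, adjusted P=0.0261), and the first of these was the most negative of the members. From the fragments alone, non-injection was higher by a ratio of 8.60 (exact 95% interval 2.63 to 44.4) and PIASy-Mut by 6.93 (exact 95% interval 1.98 to 37.1), which cover counting error only. Cox7a2, the general form, had many more fragments, 294 and 217 for PIASy-WT, 282 and 186 for PIASy-Mut, and 371 and 353 for non-injection. Its log2 fold changes were -0.51 relative to non-injection and -0.24 relative to PIASy-Mut. Cox7a1 was 1.19% and 0.807% for PIASy-WT, 5.33% and 6.23% for PIASy-Mut, and 5.40% and 6.54% for non-injection of the sum of both, so the muscle form was the minor form throughout and was lowest in PIASy-WT. Cox7a2l, a relative that joins complexes III and IV into supercomplexes, had an FPKM of 51.3 and 44.8 for PIASy-WT, 22.8 and 57.0 for PIASy-Mut, and 26.2 and 25.4 for non-injection, with PIASy-WT overlapping PIASy-Mut and log2 fold changes of 0.87 relative to non-injection and 0.40 relative to PIASy-Mut.

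For subunit 6a the muscle form was the minor form as well. Cox6a2 rested on few fragments, 8 and 10 for PIASy-WT, 3 and 6 for PIASy-Mut, and 2 and 4 for non-injection. It made up 9.36% and 9.71% for PIASy-WT, 1.44% and 4.72% for PIASy-Mut, and 1.21% and 2.60% for non-injection of the FPKM of Cox6a1 and Cox6a2 together. Its log2 fold changes were 1.40 relative to non-injection and 0.61 relative to PIASy-Mut (limma, adjusted P=0.152 and 0.497), and at these fragment numbers the difference was not called. Cox6a1, the general form, had an FPKM of 86.0 and 119 for PIASy-WT, 293 and 204 for PIASy-Mut, and 175 and 195 for non-injection, with both PIASy-WT libraries below the others. For subunit 8, Cox8a had the highest FPKM of all members, with 1560.2 and 1400.0 for PIASy-WT, 1285 and 1330.4 for PIASy-Mut, and 1306 and 1459 for non-injection, and was the highest in every library. The groups overlapped and the log2 fold changes were 0.098 relative to non-injection and 0.18 relative to PIASy-Mut. The fragments of the testis form Cox8c were 5 and 7 for PIASy-WT, 8 and 2 for PIASy-Mut, and 3 and 2 for non-injection. Those of the testis form Cox7b2 were 0 and 0 for PIASy-WT, 3 and 0 for PIASy-Mut, and 1 and 4 for non-injection, so a difference was not detectable at this depth. The most positive members of complex IV were thus Cox6a2 and Cox8c, with log2 fold changes of 1.40 and 1.11 against non-injection, and neither was called.

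**Figure D4:**
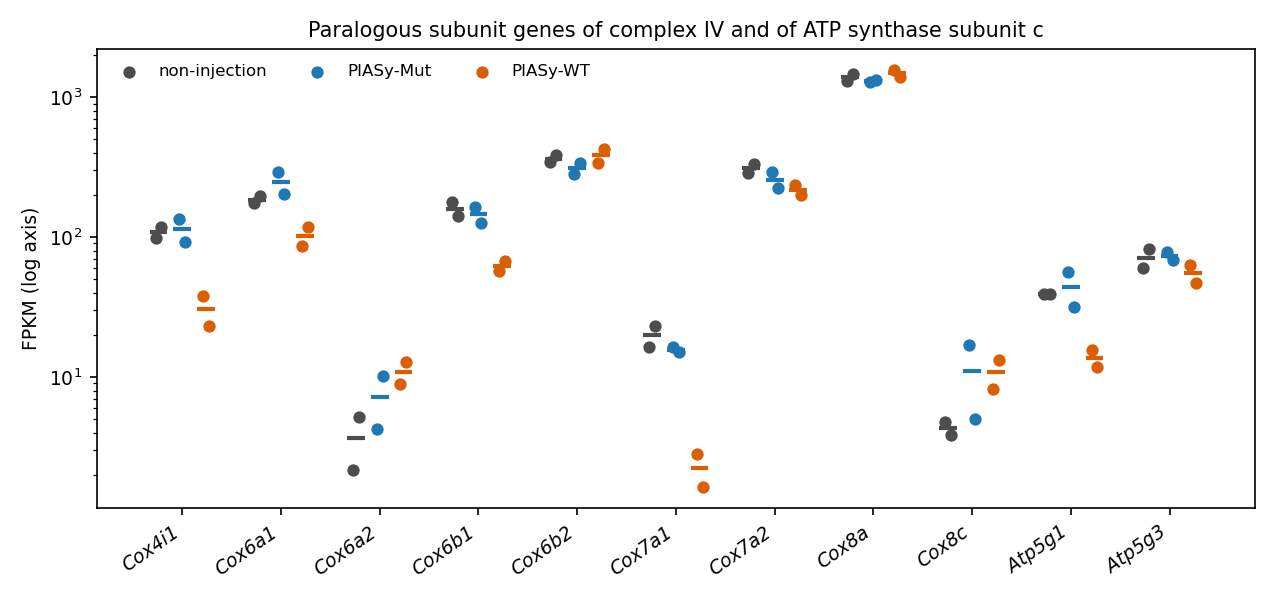
FPKM on a log axis of paralogous subunit genes of complex IV and of the genes for ATP synthase subunit c. Points are the 2 libraries of each group and bars are their means; Cox4i1, Cox6a1, Cox6b1, Cox7a1 and Atp5g1 have both PIASy-WT libraries below all others, while those of Cox6b2 and Cox8a lie within the range of the others or above it.

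Cox8a alone held a large part of the summed level of complex IV. The summed FPKM of complex IV was 2793 and 2623 for PIASy-WT, 3090.1 and 2860.0 for PIASy-Mut, and 3127 and 3268 for non-injection, and PIASy-WT 1 was only just below the lowest of the others. Without Cox8a the sum was 1233 and 1223 for PIASy-WT, 1805 and 1529.6 for PIASy-Mut, and 1821 and 1809 for non-injection, with a wider gap. The remaining members, Cox6c and Cox7b, had FPKM ranges from 39.6 to 62.9 and from 158 to 438, with log2 fold changes against non-injection of -0.27 and -0.86. The median of complex IV against PIASy-Mut depended on single libraries. It was -0.17 without PIASy-WT 2, -0.25 without PIASy-Mut 1, -0.64 without PIASy-Mut 2 and -0.73 without PIASy-WT 1.

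In complex V 13 of 16 members were negative in each comparison of PIASy-WT, with a median of -0.77 relative to non-injection and -0.67 relative to PIASy-Mut. The members called belong to the peripheral stalk, which holds the catalytic head in place, and to the membrane part. Atp5o (ENSMUSG00000022956.10, chromosome 16 from 91684398 to 91931687, minus strand) encodes the oligomycin sensitivity protein at the top of the peripheral stalk. Its FPKM was 7.68 and 5.78 for PIASy-WT, 27.4 and 21.3 for PIASy-Mut, and 20.8 and 35.2 for non-injection, with both PIASy-WT libraries the lowest. The log2 fold change was -1.87 relative to non-injection (limma, SE 0.36, adjusted P=0.0402) and -1.72 relative to PIASy-Mut (limma, adjusted P=0.0466). Its annotated exons overlap other genes over 44.0% of their length, Donson on the same strand among them, so its fragments cannot all be assigned to it with certainty.

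Atp5j (ENSMUSG00000022890.13, chromosome 16 from 84827866 to 84835625, minus strand), coupling factor 6 of the same stalk, had an FPKM of 5.54 and 6.12 for PIASy-WT, 22.0 and 17.2 for PIASy-Mut, and 16.2 and 28.0 for non-injection. PIASy-WT did not overlap the other groups, and the log2 fold change was -1.71 relative to non-injection (limma, SE 0.35, adjusted P=0.0452) and -1.58 relative to PIASy-Mut (limma, adjusted P=0.0529). Its exons overlap those of Gabpa on the opposite strand over 12.7% of their length. Gabpa itself (ENSMUSG00000008976.16, chromosome 16 from 84834925 to 84863779, plus strand), the ETS factor whose word the printed Atp5j window holds, had an FPKM of 20.6 and 9.64 for PIASy-WT, 278 and 98.6 for PIASy-Mut, and 191 and 158 for non-injection and log2 fold changes of -3.53 relative to non-injection and -3.46 relative to PIASy-Mut (limma, adjusted P=0.0317 and 0.0295). Without PIASy-Mut 1 the value for Gabpa relative to PIASy-Mut was -2.72 (limma, adjusted P=0.0846). Without strand, fragments of both genes in the overlap cannot be told apart, and the part of Gabpa fragments in the level of Atp5j was not tested. Atp5j2 (ENSMUSG00000038690.15, chromosome 5 from 145183698 to 145192062, minus strand), subunit f of the membrane part, had an FPKM of 13.7 and 12.6 for PIASy-WT, 35.2 and 33.3 for PIASy-Mut, and 29.5 and 40.7 for non-injection, and PIASy-WT did not overlap the other groups. The log2 fold change of this gene was -1.33 relative to non-injection (limma, SE 0.27, adjusted P=0.0445) and -1.32 relative to PIASy-Mut (limma, adjusted P=0.0459).

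The catalytic part of ATP synthase, the head with its central shaft, consists of Atp5a1, Atp5b, Atp5c1, Atp5d and Atp5e, the subunits alpha to epsilon. Their median log2 fold change was -0.92 relative to non-injection and -0.70 relative to PIASy-Mut and 0 of 5 were called, with 2 lower at an unadjusted P under 0.05 in each comparison of PIASy-WT, where 17.6% and 18.2% of all genes were. Atp5c1, the central shaft and the member of complex V with the highest level in non-injection embryos, had an FPKM of 75.5 and 54.7 for PIASy-WT, 134 and 98.6 for PIASy-Mut, and 119.9 and 125 for non-injection. The PIASy-WT libraries were the lowest, and the log2 fold changes were -0.92 relative to non-injection and -0.83 relative to PIASy-Mut (limma, adjusted P=0.0994 and 0.121). Atp5b, the catalytic subunit, had an FPKM of 86.4 and 70.6 for PIASy-WT, 146 and 102 for PIASy-Mut, and 115 and 126 for non-injection and log2 fold changes of -0.62 relative to non-injection and -0.64 relative to PIASy-Mut. Atp5e, the smallest of these subunits, rested on 8 to 27 fragments a library. It had log2 fold changes of 0.60 relative to non-injection and 0.46 relative to PIASy-Mut, with overlapping groups. Atp5a1, which alternates with Atp5b in the head, had an FPKM of 15.9 and 20.5 for PIASy-WT, 55.6 and 34.4 for PIASy-Mut, and 30.4 and 53.3 for non-injection. Its PIASy-WT libraries were the lowest, and the log2 fold changes were -1.11 relative to non-injection and -1.23 relative to PIASy-Mut (limma, adjusted P=0.130 and 0.107).

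Subunit c, which forms the rotating ring, is encoded by 3 genes whose mature proteins are the same. Atp5g1 had an FPKM of 15.5 and 11.7 for PIASy-WT, 56.2 and 31.8 for PIASy-Mut, and 39.0 and 39.2 for non-injection, with both PIASy-WT libraries below the others. Its log2 fold changes were -1.47 relative to non-injection and -1.58 relative to PIASy-Mut (limma, adjusted P=0.0584 and 0.0508). Atp5g3 had an FPKM of 63.3 and 46.7 for PIASy-WT, 77.7 and 68.4 for PIASy-Mut, and 59.8 and 82.3 for non-injection, with overlapping groups and log2 fold changes of -0.36 relative to non-injection and -0.42 relative to PIASy-Mut. Atp5g2 had at most 6 fragments in any library and shares 38.3% of its sequence with other genes. Atp5g1 made up 19.7% and 20% for PIASy-WT, 42.0% and 31.7% for PIASy-Mut, and 39.4% and 32.3% for non-injection of the FPKM of Atp5g1 and Atp5g3 together, and this share was lowest in both PIASy-WT libraries.

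The other stalk and membrane subunits of complex V, Atp5f1, Atp5h and Atp5k, had both PIASy-WT libraries below the others, with log2 fold changes from -0.59 to -0.21 relative to non-injection and from -0.79 to -0.35 relative to PIASy-Mut. Atp5l, subunit g, had 0.27 relative to non-injection and 0.32 relative to PIASy-Mut from at most 15 fragments a library. Atp5s, a coupling factor matched by its symbol that is not a structural subunit, had at most 13 fragments and -0.96 relative to non-injection and -0.63 relative to PIASy-Mut. The inhibitor of ATP synthase, Atpif1, which is no member, was called lower against non-injection. Its FPKM was 94.8 and 85.7 for PIASy-WT, 151 and 169.6 for PIASy-Mut, and 209.6 and 179 for non-injection, and its log2 fold changes were -1.10 relative to non-injection and -0.82 relative to PIASy-Mut (limma, adjusted P=0.0461 and 0.0829). Without PIASy-Mut 1 the median of complex V against PIASy-Mut was -0.52.

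The 13 subunits encoded in mitochondrial DNA, which are transcribed inside mitochondria, served as a reference. None was called in any comparison by limma, and their median log2 fold change was 0.14 relative to non-injection and 1.21 relative to PIASy-Mut. The first value changed sign with 1 library, being -0.17 without PIASy-WT 2 and 0.45 without PIASy-WT 1. The second value rested on PIASy-Mut 1, and without that library it was 0.047. In PIASy-Mut against non-injection the median was -1.02, and 0.068 without that library. At an unadjusted P under 0.05, 1 of them was higher against PIASy-Mut, where 9.46% of all genes were, and 0 were lower, with 0 in either direction in the other comparisons. mt-Cytb, cytochrome b of complex III, had an FPKM of 18795 and 22737 for PIASy-WT, 3226 and 23348 for PIASy-Mut, and 21140.4 and 21136 for non-injection. Apart from the low PIASy-Mut 1, the libraries overlapped. mt-Co1, the catalytic subunit of complex IV, had 5023 and 7909 for PIASy-WT, 1983 and 5975 for PIASy-Mut, and 5964 and 5617 for non-injection. The FPKM of mt-Co2, mt-Co3, mt-Atp6, mt-Atp8, mt-Nd3 and mt-Nd4l was at most 38 in any library. Only uniquely mapped reads were counted, and sequence sharing with other genes was not computed for the mitochondrially encoded genes. Whether these low values reflect transcript levels was therefore not tested, and these genes are part of the median and the share of the 13. Of all fragments on genes, the 13 genes together took 5.78% and 8.09% for PIASy-WT, 1.25% and 6.95% for PIASy-Mut, and 6.36% and 6.43% for non-injection. In PIASy-WT the nuclear-encoded share was thus below that of all other libraries while the mitochondrially encoded share was below non-injection in PIASy-WT 1 and above it in PIASy-WT 2.

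**Figure D5:**
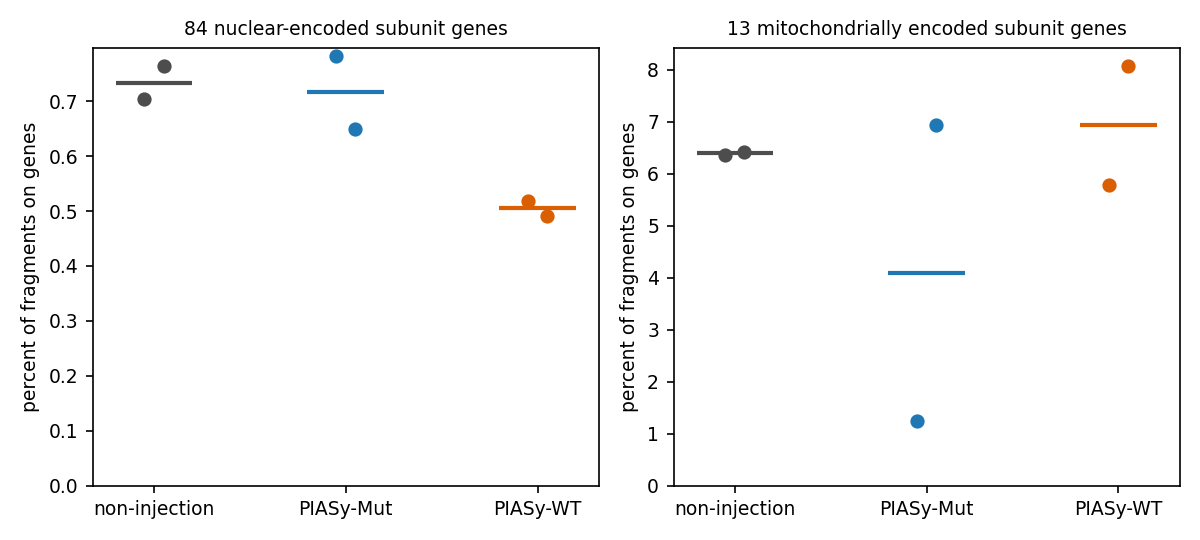
Percent of the fragments on genes that fell on the 84 nuclear-encoded members, left, and on the 13 mitochondrially encoded subunit genes, right, on linear axes from 0. Points are libraries and bars are group means; the PIASy-WT points are lowest on the left and PIASy-Mut 1 is lowest on the right.

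Factors that assemble the complexes, which are not part of them, gave 1 call. Of 49 assembly factors, 44 were tested, with 0 called against non-injection and 1 (2.27%) lower against PIASy-Mut, where 5.76% and 6.01% of all genes were lower. At an unadjusted P under 0.05, 10 (22.7%) were lower and 7 (15.9%) higher against non-injection, beside 17.6% and 10.6% of all genes. Against PIASy-Mut 10 were lower and 2 (4.55%) higher, beside 18.2% and 9.46% of all genes. The called gene was Tmem70, which helps to assemble ATP synthase. Its FPKM was 16.2 and 18.6 for PIASy-WT, 51.1 and 42.9 for PIASy-Mut, and 26.2 and 26.7 for non-injection, with PIASy-Mut above non-injection and PIASy-WT below it. The log2 fold changes were -0.58 relative to non-injection and -1.38 relative to PIASy-Mut (limma, adjusted P=0.192 and 0.0353). Relative to PIASy-Mut and without PIASy-Mut 1, Tmem70 had -1.26 (limma, adjusted P=0.0934). The median over the factors was -0.31 relative to non-injection and -0.26 relative to PIASy-Mut. The 13 tested factors of complex I had a median of -0.97 relative to non-injection and -0.97 relative to PIASy-Mut, and the 4 of complex II had 0.89 relative to non-injection and 0.50 relative to PIASy-Mut.

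Of 13 enzymes of the citric acid cycle, 1 (7.69%) was called lower and 0 higher in each comparison of PIASy-WT, near the 5.76% and 6.01% of all genes, and 0 between PIASy-Mut and non-injection, with medians of -0.0067 relative to non-injection and -0.043 relative to PIASy-Mut. The called enzyme was Idh3g, a regulatory subunit of NAD-dependent isocitrate dehydrogenase. Its FPKM was 22.3 and 8.37 for PIASy-WT, 85.4 and 55.6 for PIASy-Mut, and 62.7 and 76.3 for non-injection, with PIASy-WT 2 the lowest, and its log2 fold changes were -2.25 relative to non-injection and -2.24 relative to PIASy-Mut (limma, adjusted P=0.0481 and 0.0489). Relative to PIASy-Mut and without PIASy-Mut 1, Idh3g had -1.94 (limma, adjusted P=0.173). Cytochrome c, encoded by Cycs and the testis form Cyct, had log2 fold changes against non-injection of -0.26 and 1.20, and 0 of 2 were called.

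Factors of mitochondrial biogenesis and of mitochondrial DNA expression had a median of -0.80 relative to non-injection and -0.80 relative to PIASy-Mut over 16 of 20 tested. Against non-injection 1 (6.25%) was called lower and 0 higher, and against PIASy-Mut 2 (12.5%) were lower and 0 higher, beside 5.76% and 6.01% of all genes lower. At an unadjusted P under 0.05, 7 (43.8%) were lower and 0 higher in each, beside 17.6% and 18.2% of all genes lower and 10.6% and 9.46% higher. Those called were Gabpa in both comparisons and Tefm, an elongation factor of mitochondrial transcription, against PIASy-Mut. The FPKM of Tefm was 4.33 and 6.10 for PIASy-WT, 56.8 and 19.0 for PIASy-Mut, and 20.1 and 26.5 for non-injection, with PIASy-Mut 1 the highest and both PIASy-WT libraries the lowest. Its log2 fold changes were -1.97 relative to non-injection and -2.47 relative to PIASy-Mut (limma, adjusted P=0.0761 and 0.0491). Relative to PIASy-Mut and without PIASy-Mut 1, Tefm had -1.70 (limma, adjusted P=0.1002). Nrf1 had log2 fold changes of -0.30 relative to non-injection and -0.25 relative to PIASy-Mut, and Yy1 had -1.66 relative to non-injection and -1.52 relative to PIASy-Mut (limma, adjusted P=0.0605 and 0.0723). Tfam, which packages mitochondrial DNA, had 0.49 relative to non-injection and 0.79 relative to PIASy-Mut.

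Between PIASy-Mut and non-injection embryos the median differences by complex were small and no member was called. By complex, the median log2 fold change was from -0.21 in complex II to 0.14 in complex III, where that of complex III was -0.17 without non-injection 1 and that of complex II -0.025 without PIASy-Mut 1, and member values ran from -1.09 to 1.12. Both PIASy-Mut libraries were below both non-injection libraries in 11 of the 82 members (13.4%) and above them in 6 (7.32%), against 10.8% and 15.0% of all genes tested. A P above the threshold does not show that the groups were the same. With 2 libraries a group, an exact permutation test of 1 gene reaches a two-sided P of 0.333 at best, and none was used.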

How the data were processed

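Total RNA of pooled two-cell embryos was amplified to cDNA and sequenced in pairs of 50 and 25 bases. The authors trimmed reads with Trim Galore at a minimum quality of 20, aligned them to mm10 (STAR), and kept uniquely mapped reads for counting by featureCounts. The FPKM values used here are those the authors deposited, scaled to the fragments on genes of each library. The annotation release and strand setting are not given in the sources used here. FPKM multiplied by gene length was a whole multiple of 1 fragment, within 0.01, for 100% of values, so fragment numbers were recovered.

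Genes that reached an FPKM of 1 in 2 or more libraries were tested with limma 3.58.1 in R 4.3.3 (lmFit, eBayes with trend, two-sided, Benjamini-Hochberg over all genes tested) on log2(FPKM + 1), using all 6 libraries, with no replicate block. The script was tested on simulated data. The fit on log2 values was kept as the main test because the deposited values are FPKM, and voom on the recovered fragments was an alternative. Tables used pandas 2.3.3 and numpy 2.4.6, intervals scipy 1.17.1 and plots matplotlib 3.10.9, all under Python 3.11.15. Sequence sharing is the share of 50-base stretches of a gene's exons found in other genes.

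The alternatives were pseudocounts of 0.1 and 5, no filter and a filter at 5, median-ratio scaling, quantile normalization, totals without mitochondrial genes, eBayes without trend or robust, fits on the 2 groups compared, the replicate block, each library left out, voom on fragments and a log2 fold of at least 2 as a second condition. Voom on genes with at least 10 fragments was chosen after seeing the data. The members and all lists were chosen with earlier results of these data known.

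Named genes are the member of each complex with the highest mean FPKM in non-injection, all members of complex II, the 2 most negative and 2 most positive members of the other complexes against non-injection, every member called, the tissue-restricted paralogs, the subunit c genes, Ndufa4, Cox7a2l, and up to 3 called genes per list. Other members are described to show their complex or role and were chosen after their values were seen. No protein sequences were used, and 1 called member is not reported here.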

Additional observations from a re-analysis of the deposited data

How the results depend on the processing

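With 2 libraries a group, every call rested on a few values. Of the 25 calls of named genes, each held in 5 to 14 of 19 alternatives, and none changed sign in those run. The number of members called lower against non-injection, 10 as reported, was 1 without a filter on low values, 6 with quantile normalization, 1 without the trend, 19 by voom, 21 by voom on genes with at least 10 fragments and 3 with a log2 fold of at least 2 required. The number called higher, 0 as reported, was 1 with a filter at 5, 1 with quantile normalization, 2 in the fit on the 2 groups alone, 1 by voom and 2 by voom with at least 10 fragments. Against PIASy-Mut, the 8 lower became 1 without a filter, 17 with a filter at 5, 2 with quantile normalization, 2 without the trend, 0 in the fit on the 2 groups alone, 16 by voom, 18 by voom with at least 10 fragments and 5 with the fold required, and the 0 higher became 1 by voom in both forms. The share of all genes called lower moved as well. Against non-injection it was 5.76% as reported, 0.553% without a filter, 4.34% with quantile normalization, 1.59% without the trend, 11.8% by voom and 19.2% by voom with at least 10 fragments, and against PIASy-Mut, in the same order, 6.01%, 0.873%, 3.04%, 2.88%, 11.6% and 18.8%. With a filter at 5 it was 17.4% and 17.9%, and in the fit on the 2 groups alone 9.71% and 0%. With the fold required it was 3.81% and 4.06%, so 3 members of 82 against non-injection were at the level of all genes. The share of all genes called higher against non-injection was 4.01% with a filter at 5, 1.45% with quantile normalization, 4.53% in the fit on the 2 groups alone, 5.11% by voom and 8.79% by voom with at least 10 fragments, and by voom against PIASy-Mut 3.37% and 6.02%. Removing the filter adds genes to the adjustment, and a fit on 2 groups has fewer libraries for the spread. Whether these features of the settings caused the changes was not tested, nor was any other cause.

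Medians moved with a pseudocount of 5, which shrinks folds by construction, with voom, and with quantile normalization, which shifted the median of all genes to 0.12 and 0.11. Against non-injection the median was -0.51 with a pseudocount of 5 and -0.44 with quantile normalization over all members, -0.86 and -1.13 in complex III, and with quantile normalization -0.39 in complex I, 0.47 in complex II, -0.43 in complex IV and -0.51 in complex V. Against PIASy-Mut it was -0.42 and -0.37 over all members and -0.35 and -0.25 in complex I, and with quantile normalization 0.76 in complex II and -0.90 in complex III. By voom with at least 10 fragments it was -0.88 in complex I against non-injection, and against PIASy-Mut -0.84 over all members and -0.85 in complex IV.

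With 1 library left out at a time, members called lower numbered 0 to 16 against non-injection and 0 to 19 against PIASy-Mut, members called higher 0 to 2 and 0 to 4, and 0 between PIASy-Mut and non-injection. Of all genes, up to 12.3% and 13.2% were then called lower and up to 5.84% and 6.63% higher. A lone library was assumed to vary like the other groups. The median over all members ranged from -0.83 to -0.58 against non-injection, from -0.78 to -0.47 against PIASy-Mut and from -0.17 to 0.12 between PIASy-Mut and non-injection. In the same order it ranged in complex I from -0.65 to -0.58, from -0.68 to -0.57 and from -0.16 to 0.13, in complex II from 0.24 to 0.34, from 0.45 to 0.62 and from -0.36 to -0.025, and in complex III from -1.38 to -0.92, from -1.48 to -0.86 and from -0.17 to 0.28. In complex IV it ranged from -0.74 to -0.52, from -0.73 to -0.17 and from -0.24 to 0.054, and in complex V from -0.88 to -0.53, from -0.90 to -0.52 and from -0.23 to 0.21. For mitochondrially encoded subunits it ranged from -0.17 to 0.45, from 0.047 to 2.37 and from -2.24 to 0.068, where the values nearest to and farthest from 0 in the last 2 ranges arose without PIASy-Mut 1 and without PIASy-Mut 2.

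The labels do not say what libraries with the same number share beyond it, and no pairing was taken from it. The correlation of their deviations over all genes was 0.0037 between non-injection and PIASy-Mut, 0.085 between non-injection and PIASy-WT and 0.064 between PIASy-Mut and PIASy-WT. With the replicate block, 7 members were lower against non-injection, 7 against PIASy-Mut and 0 higher in either, where 4.47% and 4.96% of all genes were lower and 0.553% and 0.416% higher, and 0 members were called between PIASy-Mut and non-injection. The depth limits the low genes most: 53 members had at least 10 fragments in every library, and 10 had fewer than 10 in each.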
